A study of Mus musculus with 14 samples.

Results

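The FoxO transcription factors of the mouse (Foxo1, Foxo3, Foxo4 and Foxo6) were followed in satellite cells, which are the stem cells that skeletal muscle keeps for its repair. They were taken as every non-control probe of the array that carries one of these gene names, which gave 8 of 55681 probes and 4 of 36406 gene names, with 2 probes for each gene. The 14 single-colour Agilent arrays held RNA of 3 Young (2, 2 and 3 months), 3 Old (22, 23 and 24 months) and 2 Geriatric (30 and 29 months, replicates 1 and 3) C57BL/6 mice, and of 3 SAMR1 and 3 SAMP8 mice aged 12 months. SAMP8 is a strain prone to accelerated senescence, and SAMR1 is its resistant counterpart. All mice were labelled male and none carried an engineered allele or a treatment per the labels. The sort kept cells with integrin α7 and CD34 on their surface and removed those with Sca1, CD11b, CD45 or CD31, and the RNA was amplified before labelling. C57BL/6 mice were not tested against SAMR1 or SAMP8 mice.

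FoxO proteins are forkhead factors that bind DNA when insulin and IGF signalling is low. When the pathway is active, the kinase AKT phosphorylates them, 14-3-3 proteins bind them, and they leave the nucleus. In the nucleus they activate genes of cell cycle arrest, oxidative stress defence, cell death, autophagy and protein breakdown, and in muscle stem cells Foxo3 is known for its part in keeping the quiescent state through Notch signalling.

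The libraries were checked first. All 10 satellite cell markers, Pax7 and Myf5 among them, were well above background on all 14 arrays. Between 77.2% and 88.7% of probes were well above background per array, and 1 array, Geriatric 1, had 969 outlier spots against 94 to 255 elsewhere. The arrays went against the male label in part: Xist, the RNA that silences an X chromosome, had log2 levels of 5.08 to 5.86 on the 6 Young and Old arrays and of −8.15 to −3.52 on the other 8, while the Y-linked genes Ddx3y, Uty and Kdm5d were not well above background on any of the 6 and were on all of the 8. This split cannot be told apart from the Geriatric group in its comparisons with Young and Old, and these comparisons cannot be made without the arrays concerned. It does not divide Young from Old or SAMR1 from SAMP8. Leukocyte markers also moved with the Geriatric group: the summed level of 6 markers, in multiples of each array's 75th percentile, was 177 to 184 on the Geriatric arrays, 246 to 396 on the Old and 268 to 374 on the Young arrays, mostly through the Itgam probe. Of these 6 markers, 1 (Lyz2) was lower in Geriatric than in Old (log2 difference −1.70 ± 0.46, SE; limma adjusted p = 0.0251). The summed level of 5 muscle fibre markers was 3.43 to 3.64 on the Geriatric and 4.27 to 9.50 on the Old arrays, with none called. Of 10 satellite cell markers, 1 (Myf5) was higher in Geriatric than in Old (2.34 ± 0.43, limma adjusted p = 0.00432), and of 5 smooth muscle and pericyte markers, 1 (Pdgfrb) was higher in Old (2.45) and in Geriatric (2.66) than in Young. The summed level of those 5 was lower on the Geriatric arrays (4.01 to 8.82) than on the Old (9.64 to 17.6) and Young arrays (9.99 to 17.0). This was mostly through Acta2, with a mean log2 level of 2.20 in Geriatric, 3.32 in Old and 3.53 in Young. Yet 4 of the 5 were above 0 in Geriatric versus Old (median log2 difference 0.17) and 4 in Geriatric versus Young (median 0.43). The endothelial, mesenchymal and Schwann cell lists had no call in any of the 4 comparisons, but some of their sums did not overlap: the endothelial sum was 16.3 to 17.7 on the Geriatric and 10.5 to 14.3 on the Old arrays, the mesenchymal sum was 89.6 to 103 in SAMP8 and 56.0 to 76.5 in SAMR1, and the Schwann cell sum was 0.50 to 3.54 in SAMP8 and 4.13 to 10.1 in SAMR1. Although the endothelial sum was higher in Geriatric than in Old, only 2 of its 6 markers were above 0 (median log2 difference −0.53). Of all genes tested, 19.9% were called in Geriatric versus Old. The part of these differences in the results below was not tested.

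Except for Foxo4, the 2 probes of a FoxO gene do not read the same stretch of RNA, so the positions come first (mouse build mm9, as in the scanner files). For Foxo1, 1 probe (A_51_P138044) lies at chr3:52150183-52150242 on the plus strand, from position 2308 of transcript NM_019739, in the coding sequence near its 3′ end, and the other (A_52_P453884) lies 3106 bases downstream at chr3:52153289-52153348, from position 4809. They are called the upstream and the downstream Foxo1 probe here. For Foxo3, A_55_P2150896 lies at chr10:41905610-41905669 on the minus strand and belongs to the RefSeq transcript NM_019740, from position 2811. The other Foxo3 probe, A_55_P2129309, lies at chr10:41967288-41967347, 61678 bases away towards the 5′ end of the gene, and was designed on the cDNA clone AK143198 rather than on the RefSeq mRNA. They are called the mRNA probe and the clone probe. Whether the clone probe lies in an exon of Foxo3 is not given in the files. The sequences below, from the scanner files, show what each reads: the whole coding probe of Foxo1, and 30 bases each of the Foxo3 and Foxo4 probes, with capitals for the run of G and T that ends the clone probe and for the bases that the Foxo4 probes share.
Foxo1 A_51_P138044: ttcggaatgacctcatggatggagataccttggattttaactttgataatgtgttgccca
Foxo3 A_55_P2150896 (first 30 bases): taaaagcagaaggaaggtgttatatcagtt
Foxo3 A_55_P2129309 (last 30 bases): catcTGGTTTTGTTGTTGTTTTGGTTTTTT
Foxo4 A_55_P2150901 (first 30 bases): actttagaGCTAAGGATTGGTGGCAACACA
Foxo4 A_55_P2113026 (first 30 bases): GCTAAGGATTGGTGGCAACACACTCAAGTG

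The clone probe of Foxo3 ends in 26 bases of only G and T. A run at least as long ends 41 of the 55681 probes (0.0736%). The Foxo4 probes (chrX:98454966-98455025 and chrX:98454974-98455033, plus strand, transcript NM_018789) start 8 bases apart and share 52 of their 60 bases, so they are near repeats of 1 measurement. The Foxo6 probes (chr4:119940278-119940337, A_55_P2092226, and chr4:119939688-119939747, A_52_P589568, minus strand) start at positions 1873 and 2463 of NM_194060.

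All 8 probes passed the filter on dim probes, which asked for 2 arrays of a group well above background. Levels are log2 signals relative to the 75th percentile of all probes on the same array, so a level of 0 is at that percentile. Levels of different probes are not comparable with each other. Less FoxO RNA per cell and fewer cells that carry it cannot be told apart in these bulk samples.

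By the mRNA probe, Foxo3 was highest in the Old mice, which the clone probe did not show. The levels of the mRNA probe were 3.14, 3.61 and 3.42 on the Young arrays and 4.06, 4.28 and 4.55 on the Old arrays. They were 3.14 and 2.86 on the Geriatric arrays. They were 2.88, 3.01 and 3.24 in SAMR1 and 3.62, 3.51 and 3.48 in SAMP8. Each of the 3 Old arrays lay above all 11 others, whose highest level was 3.62. How many of all probes set a group apart in this way was not counted. The 11 others include the SAMR1 and SAMP8 arrays, against which the Old arrays were not tested. By mean, the order was Old (4.30 ± 0.25, SD, n = 3), SAMP8 (3.54 ± 0.07, n = 3), Young (3.39 ± 0.24, n = 3), SAMR1 (3.05 ± 0.18, n = 3) and Geriatric (3.00 ± 0.20, n = 2). Only the first neighbours in that order, Old and SAMP8, did not overlap.

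**Figure D1:**
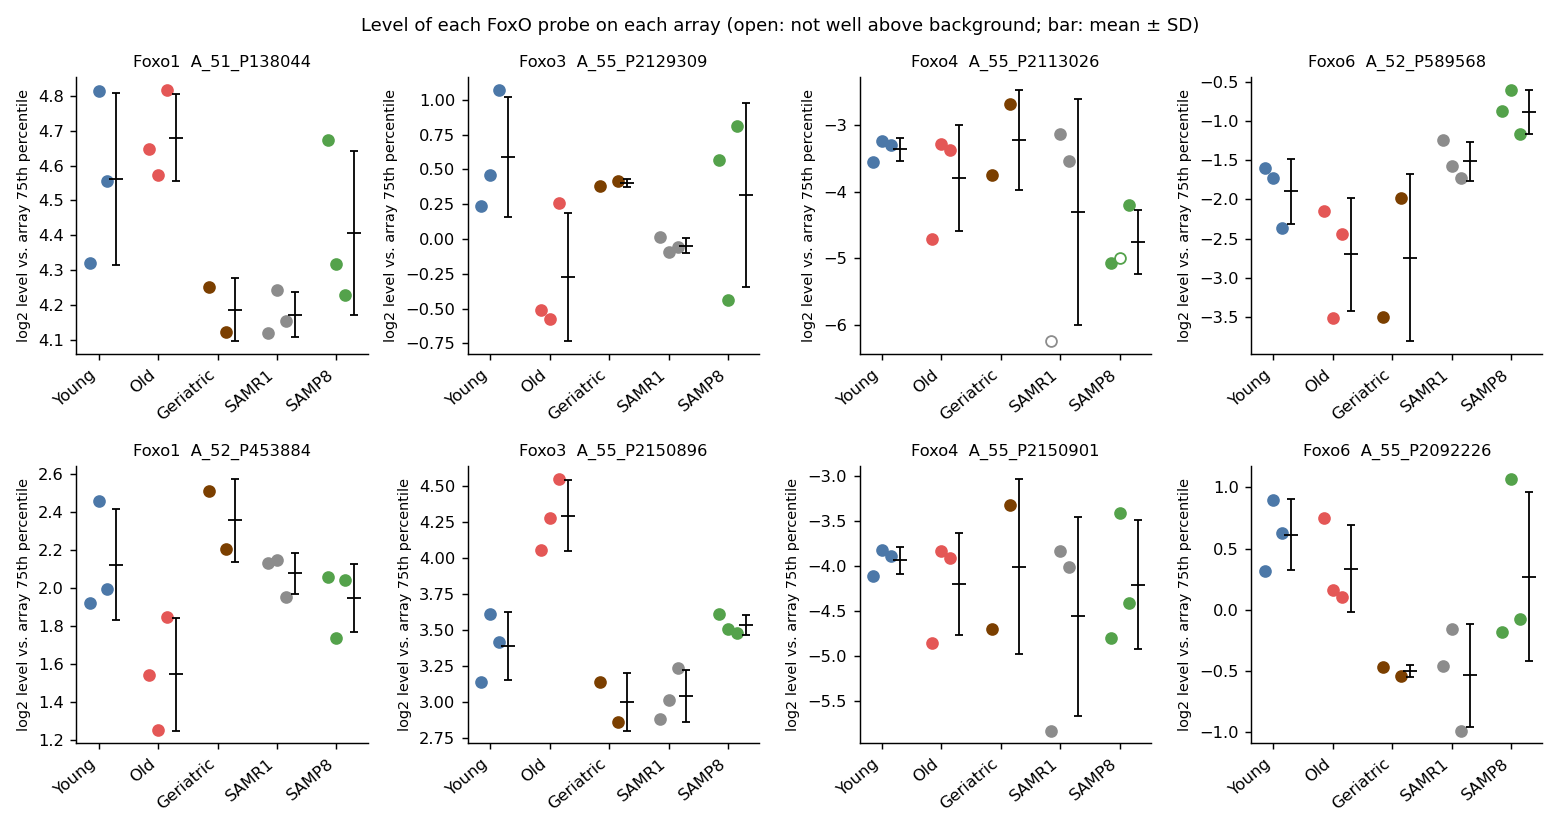
Level of each FoxO probe (log2, relative to the array's 75th percentile, vertical axis) on each of the 14 arrays by group; points are arrays, open points are not well above background, and bars give the mean ± SD. The 3 Old arrays stand above the other 11 for the Foxo3 mRNA probe A_55_P2150896, while the clone probe A_55_P2129309 is lowest on 2 Old arrays.

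Between Geriatric and Old mice, 2 of the 8 FoxO probes passed the test (limma over 49930 probes, Benjamini-Hochberg adjusted p under 0.05). In this comparison 18% of all probes tested were called, 5.32% higher and 12.7% lower in Geriatric. The groups did not overlap for 5 of 8 FoxO probes, against 53.2% of all probes. The Foxo3 mRNA probe was 2.45-fold lower in Geriatric mice (log2 difference −1.29 ± 0.23, SE, 95% interval −1.79 to −0.80; limma adjusted p = 0.00374). The Geriatric arrays also differ from the Old in the sex-linked transcripts given above, and the parts of age and of this split in the difference cannot be told apart. Under other scalings of the arrays the difference lay between −1.32 and −1.11 and remained called. The call was lost with only the 5 arrays of these groups fitted (−1.29, limma adjusted p = 0.0564), and within the second slide (−1.30, limma adjusted p = 0.0897). With both Foxo3 probes averaged the difference was −0.31 and not called (limma adjusted p = 0.419). Without Geriatric 1 the difference was −1.43 (limma adjusted p = 0.0157) and without Geriatric 3 it was −1.15 (limma adjusted p = 0.0499).

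From Young to Old the same Foxo3 probe differed by 0.91 ± 0.20 (log2, SE, 1.87-fold higher in Old; 95% interval 0.46 to 1.35), and the arrays of the groups did not overlap. The limma adjusted p was 0.0591 over all probes, so the probe was not called. In the fit with 1 probe per gene (32873 genes), where the mRNA probe stood for Foxo3, the limma adjusted p was 0.0494. That call was lost in 21 of 27 other settings, in all 14 that left out 1 array (limma adjusted p of 0.0590 to 0.178), with the replicate block (limma adjusted p = 0.0954) and with only these groups (limma adjusted p = 0.192) among them, and with both Foxo3 probes averaged the difference was 0.02 (limma adjusted p = 0.979). In the fit over all probes, the probe was called in 3 of 26 other settings, which were the background correction normexp followed by quantile normalization (0.87, limma adjusted p = 0.0241), the authors' deposited log2 values (0.87, limma adjusted p = 0.0251) and the percentile taken over probes detected on all arrays (0.97, limma adjusted p = 0.0419). In all, 0 of 8 FoxO probes were called in Old versus Young (3 at an unadjusted p under 0.05), against 1.24% of all probes. The arrays of the groups did not overlap for 2 of 8 probes, against 21.4% of all probes.

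The clone probe of Foxo3 gave a different order. Its levels were 0.24, 0.46 and 1.07 on the Young arrays and −0.51, −0.57 and 0.26 on the Old arrays. They were 0.38 and 0.42 on the Geriatric arrays, 0.01, −0.10 and −0.06 in SAMR1 and 0.57, −0.44 and 0.81 in SAMP8. The Old group had the lowest mean of the 5 groups (−0.28 ± 0.46, SD, n = 3), with Young at the top (0.59 ± 0.43, n = 3), and every neighbouring pair of groups overlapped. None of its differences passed the test: Old minus Young was −0.87 ± 0.35 (SE; limma adjusted p = 0.239) and Geriatric minus Old was 0.67 ± 0.39 (limma adjusted p = 0.239).

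The disagreement between the Foxo3 probes was measured within each array, as the clone probe's level minus the mRNA probe's. The change of this quantity on the log2 scale was −1.77 from Young to Old (exact permutation test, two-sided p = 0.1) and 1.97 from Old to Geriatric (exact permutation p = 0.1). The smallest p that these group sizes allow is 0.1, so the test cannot pass 0.05. Between Young and Geriatric the change was 0.20 (exact permutation p = 0.5), and between SAMR1 and SAMP8 it was −0.13 (exact permutation p = 0.9). Leaving out any single array kept the change from Young to Old between −1.95 and −1.54 and that from Old to Geriatric between 1.81 and 2.13. By group means, the mRNA probe was highest and the clone probe lowest in the Old group. That the Foxo3 probes disagree was known when the probes were chosen, so these values describe it and do not support it.

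**Figure D2:**
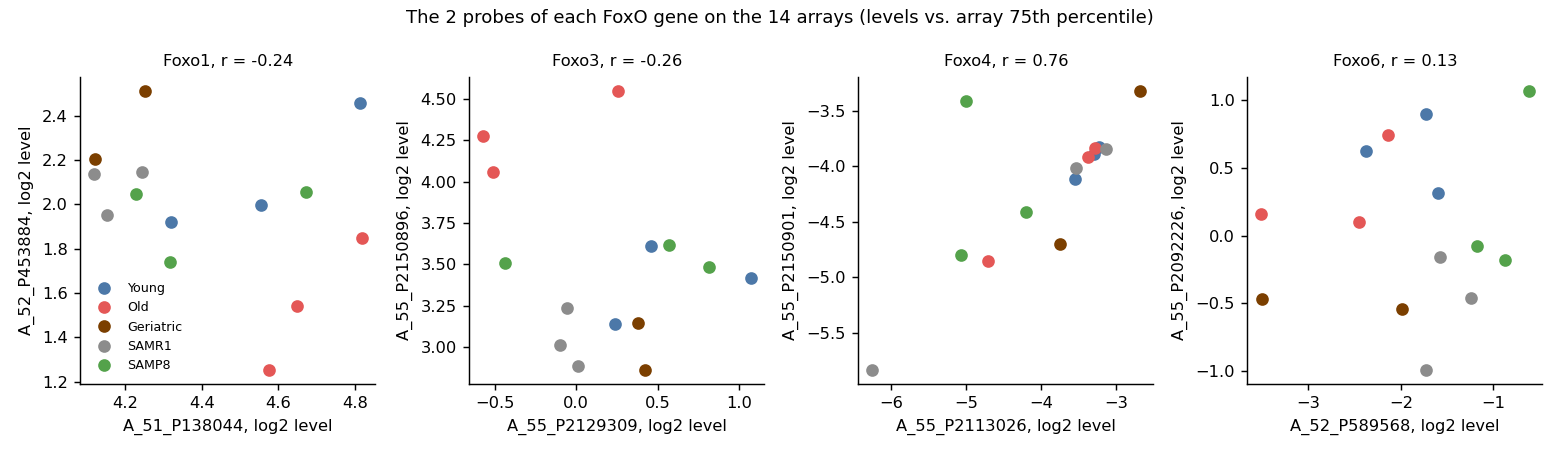
Levels (log2, relative to the array's 75th percentile) of the 2 probes of each FoxO gene plotted against each other, 1 point per array, coloured by group, with Pearson's r over the 14 arrays. The overlapping Foxo4 probes vary together (r = 0.76), the Foxo1 (r = −0.24) and Foxo3 (r = −0.26) probes weakly in opposite directions, with the 3 Old arrays at the top of the Foxo3 panel.

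Over the 14 arrays, which share scaling and slides, the 2 probes of a gene had Pearson's r of −0.24 for Foxo1, −0.26 for Foxo3, 0.13 for Foxo6 and 0.76 for the overlapping Foxo4 probes. Among 4332 genes with a symbol and 2 kept probes, the median r was 0.42 and the middle range of quartiles was 0.108 to 0.685. Foxo1 and Foxo3 thus lay below the lower quartile, Foxo6 just inside it and Foxo4 above the upper one.

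Foxo1, the FoxO member best known as a target of insulin signalling, was read by a coding and a downstream probe that did not order the groups alike. The upstream probe had levels of 4.32, 4.81 and 4.55 in Young, 4.65, 4.57 and 4.82 in Old and 4.25 and 4.12 in Geriatric mice. It had 4.12, 4.24 and 4.15 in SAMR1 and 4.67, 4.32 and 4.23 in SAMP8. The Geriatric arrays lay below all Young and Old ones, but no difference passed the test: Geriatric minus Old was −0.49 ± 0.22 (SE; limma adjusted p = 0.131), and Old minus Young was 0.12 ± 0.19 (95% interval −0.31 to 0.54; limma adjusted p = 0.828). In the authors' deposited log2 values the Geriatric arrays (14.192 and 13.917) were not set apart. The Old arrays lay between 14.092 and 14.185 there, and the Young arrays between 13.81 and 14.39. Over the other settings Geriatric minus Old ranged from −0.56 to −0.099 and was never called. The unscaled processed signal of this probe lay between 15500 and 21329 units on all 14 arrays.

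The downstream Foxo1 probe had levels of 1.92, 2.46 and 2.00 in Young, 1.54, 1.25 and 1.85 in Old and 2.51 and 2.20 in Geriatric mice. It had 2.14, 2.15 and 1.95 in SAMR1 and 2.06, 1.74 and 2.05 in SAMP8. The Old arrays lay below all Young and Geriatric arrays and overlapped only with SAMP8. In the authors' deposited log2 values, however, the highest Old array (11.61) lay above the lowest Young array (11.53). The probe was 1.75-fold higher in Geriatric than in Old mice (log2 difference 0.81 ± 0.25, SE, 95% interval 0.27 to 1.35; limma adjusted p = 0.0437), and Old minus Young was −0.58 ± 0.22 (limma adjusted p = 0.223). The Geriatric versus Old call was lost in 13 of 25 other settings: the difference was 0.66 (limma adjusted p = 0.210) without Geriatric 1, 0.96 (limma adjusted p = 0.112) without Geriatric 3, 0.81 (limma adjusted p = 0.0955) without Old 1 and 0.66 (limma adjusted p = 0.131) without Old 2. It was also lost when any of 6 arrays outside these groups was left out (Young 1 and 3, the 3 SAMR1 arrays and SAMP8 1), with an unchanged difference of 0.81 and limma adjusted p of 0.0509 to 0.0630.

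Within the array, the upstream minus the downstream Foxo1 level differed by 0.69 from Young to Old, by −1.30 from Old to Geriatric and by −0.61 from Young to Geriatric, with an exact permutation p of 0.1 for each, the smallest possible, so none can pass 0.05. For Foxo1, Old and Geriatric thus lay on opposite sides of Young in this quantity. The overlapping Foxo4 probes reached the same exact permutation p of 0.1 in these comparisons with smaller changes. For A_55_P2113026 minus A_55_P2150901 these were −0.17 from Young to Old, 0.38 from Old to Geriatric and 0.21 from Young to Geriatric.

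**Figure D3:**
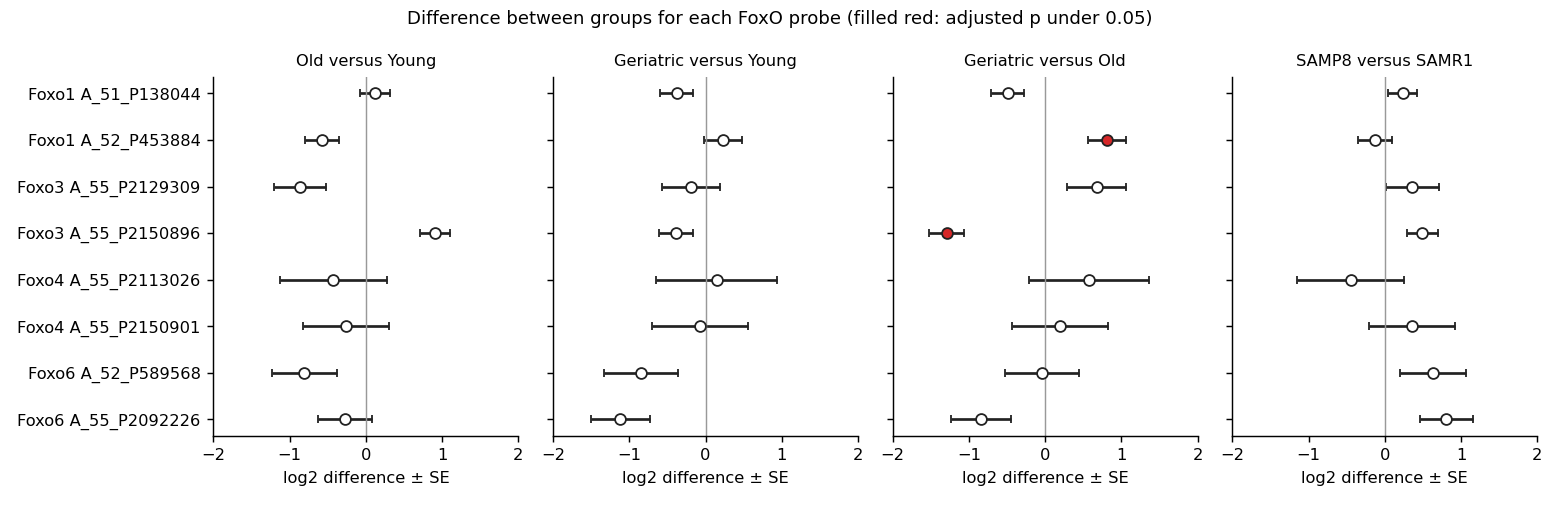
Log2 difference between groups (horizontal axis) with its limma standard error for each of the 8 FoxO probes, 1 panel per comparison; filled red points passed an adjusted p of 0.05. Only the Foxo3 mRNA probe (−1.29) and the downstream Foxo1 probe (0.81) are filled, both in Geriatric versus Old.

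Foxo4, the X-linked member that acts in stress responses, was dim on this array. Its processed signal was at most 156 units for A_55_P2113026 and 100 units for A_55_P2150901, and the first was not well above background on 2 of 14 arrays (SAMR1 1 and SAMP8 2). By mean, A_55_P2113026 was ordered Geriatric (−3.22), Young (−3.36), Old (−3.79), SAMR1 (−4.31) and SAMP8 (−4.76). The levels of A_55_P2113026 ranged from −6.25 to −2.69 and those of A_55_P2150901 from −5.83 to −3.32, with SDs within groups of up to 1.70. All neighbouring groups overlapped in both probes. No Foxo4 difference passed the test, and the intervals were wide. For Geriatric minus Old, A_55_P2113026 gave 0.57 with a 95% interval of −1.16 to 2.30, which holds a fall as well as a larger rise.

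Foxo6, the member best known from brain, was well above background with both probes on all 14 arrays. A_55_P2092226 had levels of 0.32, 0.90 and 0.63 in Young, 0.75, 0.16 and 0.10 in Old and −0.47 and −0.54 in Geriatric mice. It had −0.46, −0.16 and −0.99 in SAMR1 and −0.18, 1.07 and −0.07 in SAMP8. Both Geriatric arrays lay below every Young and Old array. Geriatric minus Young was −1.12 ± 0.39 (SE, 95% interval −1.98 to −0.26; limma adjusted p = 0.146) and Geriatric minus Old was −0.84 ± 0.39 (limma adjusted p = 0.155), so neither passed.

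The other Foxo6 probe, A_52_P589568, had levels of −1.60, −1.72 and −2.37 in Young, −2.14, −3.52 and −2.45 in Old and −3.50 and −1.99 in Geriatric mice. It had −1.24, −1.57 and −1.73 in SAMR1 and −0.87, −0.61 and −1.17 in SAMP8. The 3 SAMP8 arrays lay above all 11 others, the nearest at −1.24. The share of all probes with such a separation was not counted. The difference of SAMP8 and SAMR1 was 0.63 ± 0.43 (SE, 95% interval −0.32 to 1.57; limma adjusted p = 0.790).

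Between Geriatric and Young mice, 0 of 8 FoxO probes were called by limma (1 at an unadjusted p under 0.05), against 3.54% of all probes. The groups did not overlap for 2 of the 8 FoxO probes, against 42.9% of all probes. The Foxo3 mRNA probe differed by −0.39 ± 0.23 (SE, 95% interval −0.88 to 0.11; limma adjusted p = 0.356): 1 of its 2 Geriatric levels lay just above the lowest Young level and the other below it. The Old group thus stood above both its younger and its older neighbour for this probe, but of those comparisons the one with Geriatric passed the test and the one with Young did not over all probes. Since these comparisons share the Old arrays, they are not independent.

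Between SAMP8 and SAMR1, 0 of 8 FoxO probes were called by limma (2 at an unadjusted p under 0.05), against 0.421% of all probes. The groups did not overlap for 2 of 8 FoxO probes, against 13.1% of all probes. The Foxo3 mRNA probe was one of them, with 0.49 ± 0.20 (SE, 95% interval 0.05 to 0.94; limma adjusted p = 0.526). The largest difference was that of Foxo6 A_55_P2092226, whose groups overlapped (0.81 ± 0.35, 95% interval 0.04 to 1.58; limma adjusted p = 0.557). The Foxo3 clone probe gave 0.36 ± 0.35 (limma adjusted p = 0.888), and the upstream Foxo1 probe 0.23 ± 0.19 (limma adjusted p = 0.849).

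The Old versus Young difference was set against the SAMP8 versus SAMR1 difference in 1 fit. For 0 of 8 FoxO probes was the difference of these differences called by limma (2 at an unadjusted p under 0.05), against 0.302% of all probes. It was −1.23 ± 0.49 (SE; limma adjusted p = 0.365) for the Foxo3 clone probe, 0.42 ± 0.29 (limma adjusted p = 0.624) for the Foxo3 mRNA probe and −1.43 ± 0.61 (limma adjusted p = 0.400) for Foxo6 A_52_P589568.

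**Figure D4:**
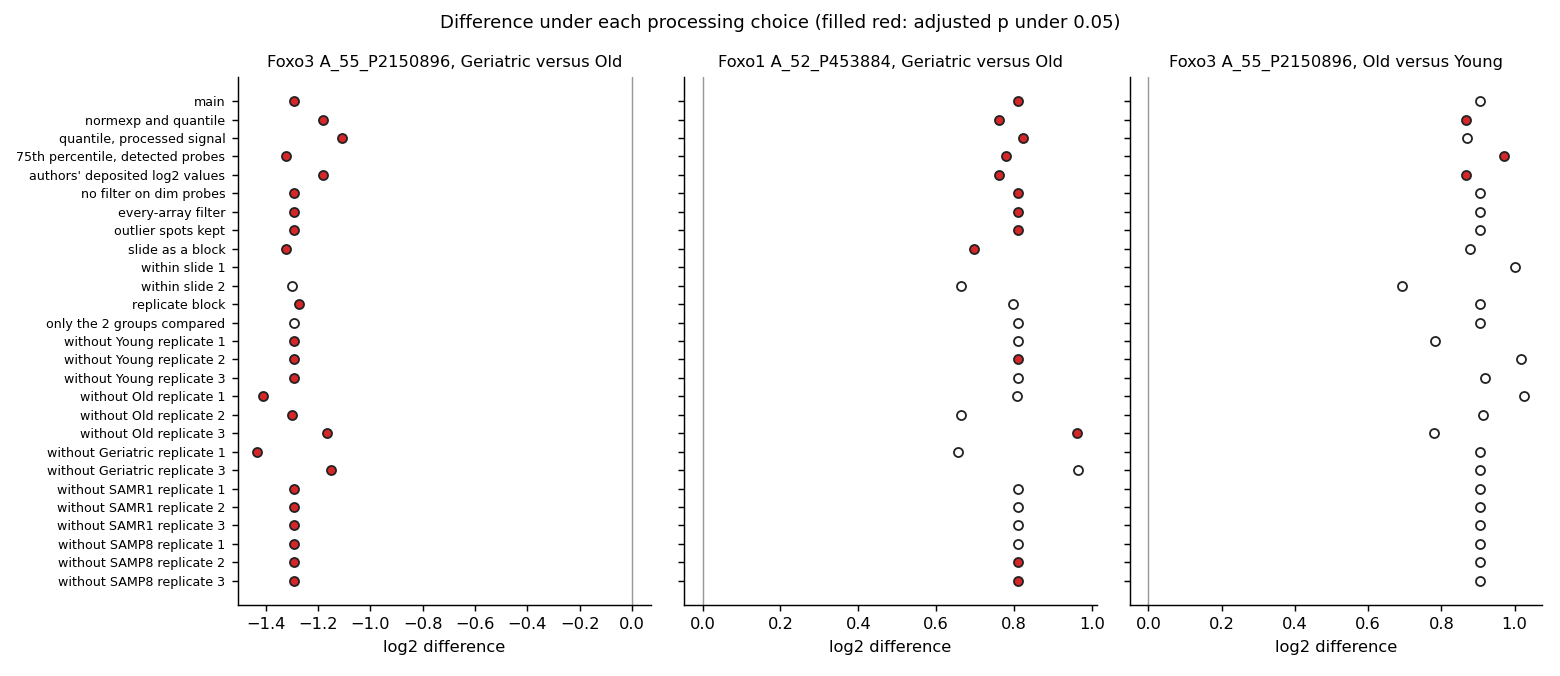
Log2 difference (horizontal axis) of 3 FoxO results under each processing choice (rows); filled red points passed an adjusted p of 0.05, and a missing point means that the comparison could not be made. The Foxo3 mRNA probe stays between −1.43 and −1.11 in Geriatric versus Old, the downstream Foxo1 probe loses its call in 13 of 25 settings, and the Foxo3 mRNA probe is called in 3 of 26 in Old versus Young.

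The genes around the FoxO factors were taken from textbook lists of 85 genes, of which 84 were measured (Pik3cb did not pass the filter), with 1 probe per gene. Between Geriatric and Old mice, 10 rose and 6 fell, which is 19% of the 84, against 19.9% of all 32873 genes tested (5.52% higher, 14.4% lower). Their median log2 difference was 0.28, against −0.22 over all genes, and 55 of 84 were above 0 (65.5%, against 40.2% of all genes). The count of 16 fell to 0 without Geriatric 3, 3 without Old 2, 5 without Geriatric 1 and 6 without Old 1, and to 1 within the second slide.

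Upstream of FoxO, in the insulin and PI3K-AKT arm, 3 of 15 measured genes rose and 1 fell from Old to Geriatric. That is 26.7% called, against 19.9% of all genes. The receptor gene Igf1r had levels of −1.05, −1.21 and −0.68 in Old and −0.03 and 0.22 in Geriatric mice, a rise of 1.07 ± 0.28 (SE; limma adjusted p = 0.0207). The 2 receptor adaptors moved apart. Irs1 rose from 1.75, 1.84 and 2.56 to 2.87 and 3.24 (1.0 ± 0.28, limma adjusted p = 0.0284; 0.82 to 1.61 over the settings). A second Irs1 probe gave 2.21 ± 0.39 (limma adjusted p = 0.00367 over all probes). Irs2, itself a known FoxO target, fell from 5.44, 5.46 and 5.68 to 4.60 and 4.28 (−1.08 ± 0.20, limma adjusted p = 0.00456). The kinase genes Akt1 and Akt2 did not pass, with 0.54 ± 0.26 for Akt1 (limma adjusted p = 0.167) and −0.36 ± 0.21 for Akt2 (limma adjusted p = 0.230).

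Of the 19 modifiers and partners, 2 rose and 1 fell from Old to Geriatric (15.8% called, against 19.9% of all genes). Prkaa1, a catalytic subunit of the energy sensor AMPK, rose by 1.28 ± 0.37 (SE; limma adjusted p = 0.0335), and Ywhag, a 14-3-3 protein, by 0.99 ± 0.30 (limma adjusted p = 0.0390). Crebbp, an acetyltransferase that modifies FoxO proteins, fell by 0.79 on the log2 scale (SE 0.24, limma adjusted p = 0.0373), and lost its call in 14 of 26 other settings. For Crebbp the difference was −0.17 (limma adjusted p = 0.468) with quantile normalization and −0.07 (limma adjusted p = 0.777) with normexp and quantile normalization.

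Among the 50 targets, 5 rose and 4 fell from Old to Geriatric (18% called, against 19.9% of all genes). In the cell cycle and quiescence list 2 of 12 rose and 1 fell (25% called). Ccng2, a cyclin of arrested cells, rose from −2.37, −2.62 and −1.92 to −1.03 and −0.97 (1.30 ± 0.36, SE; limma adjusted p = 0.0278). Rbl2, the pocket protein p130 of quiescent cells, rose by 1.73 ± 0.55 (limma adjusted p = 0.0476), with 1 of 3 Old arrays not well above background, and was called in 11 of 26 other settings (0.88 to 2.59). Ccnd2, a cyclin of cell cycle entry that FoxO factors are known to repress, fell from −0.46, −0.85 and −0.32 to −2.83 and −3.30 (−2.52 ± 0.69, limma adjusted p = 0.0273). Its Young levels of −2.27, −2.71 and −1.90 were low as well, so that the Old arrays stood apart from both other ages, but Old minus Young (1.75 ± 0.62, limma adjusted p = 0.184) did not pass. Cdkn1a, the cell cycle inhibitor p21, gave −1.72 ± 0.57 (limma adjusted p = 0.0528) and was called in 8 of 26 other settings. The remaining 8 genes of the list, Klf2, Klf4, Notch1 and Notch3 among them, were not called.

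In the oxidative stress list 0 of 8 rose and 1 fell (12.5% called, against 19.9% of all genes). That was Sesn2, a stress-induced sestrin, which fell from 1.01, 1.78 and 1.51 to 0.25 and 0.08 (−1.27 ± 0.31, SE; limma adjusted p = 0.0171). The other sestrins gave positive differences that did not pass: 1.21 ± 0.40 for Sesn1 (limma adjusted p = 0.0527) and 1.15 ± 0.40 for Sesn3 (limma adjusted p = 0.0624). Over 26 other settings Sesn1 was called in 5 and Sesn3 in 3.

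In protein breakdown and autophagy 1 of 14 rose and none fell (7.14% called, against 19.9% of all genes). Of the 14, 12 were above 0 (40.2% of all genes were), with a median of 0.30. Bnip3, a mitophagy receptor, rose from −0.86, −1.47 and −0.82 to −0.10 and 0.37 (1.19 ± 0.32, SE; limma adjusted p = 0.0246). Atg14 gave 0.76 ± 0.27 (limma adjusted p = 0.0679) and was called in 6 of 26 other settings. The ubiquitin ligase genes Fbxo32 and Trim63, the best-known FoxO targets of wasting muscle, did not pass. Fbxo32 gave 0.56 ± 0.26 (limma adjusted p = 0.153) and was called in 3 of 26 other settings. Trim63 gave −2.34 ± 0.89 (limma adjusted p = 0.0895) with Geriatric 1 dropped as an outlier spot, −0.78 (limma adjusted p = 0.555) with that spot kept and 0.05 (limma adjusted p = 0.928) in the authors' deposited values. It was called with slide as a block (−2.63, limma adjusted p = 0.0360) and with only these groups (−2.34, limma adjusted p = 0.0276).

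In metabolism and growth 2 of 10 rose and 2 fell (40% called, against 19.9% of all genes). Klf15, a factor of fasting metabolism, rose by 1.16 ± 0.28 (SE; limma adjusted p = 0.0157), and Lpin1, a phosphatidate phosphatase and coactivator, by 1.05 ± 0.30 (limma adjusted p = 0.0300), where a second Lpin1 probe gave −0.77 ± 0.90 and the average of both 0.14 (limma adjusted p = 0.855). Over the settings Klf15 ranged from 0.84 to 1.96. Trib1, a pseudokinase, fell by 1.40 on the log2 scale (SE 0.41, limma adjusted p = 0.0351), with a range of −1.99 to −0.80 over the settings. Igfbp1, an IGF-binding protein and classical FoxO target, was not well above background on either Geriatric array and was well above it on all 3 Old ones. It was at least 2.78-fold lower in Geriatric mice (log2 difference −1.78, limma adjusted p = 0.0143), but for Igfbp1 the difference was −0.84 (limma adjusted p = 0.265) with quantile normalization and −0.18 (limma adjusted p = 0.425) with normexp and quantile normalization. Of the 6 cell death genes, limma called 0, and 1 was above 0, where 19.9% of all genes were called and 40.2% were above 0.

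**Figure D5:**
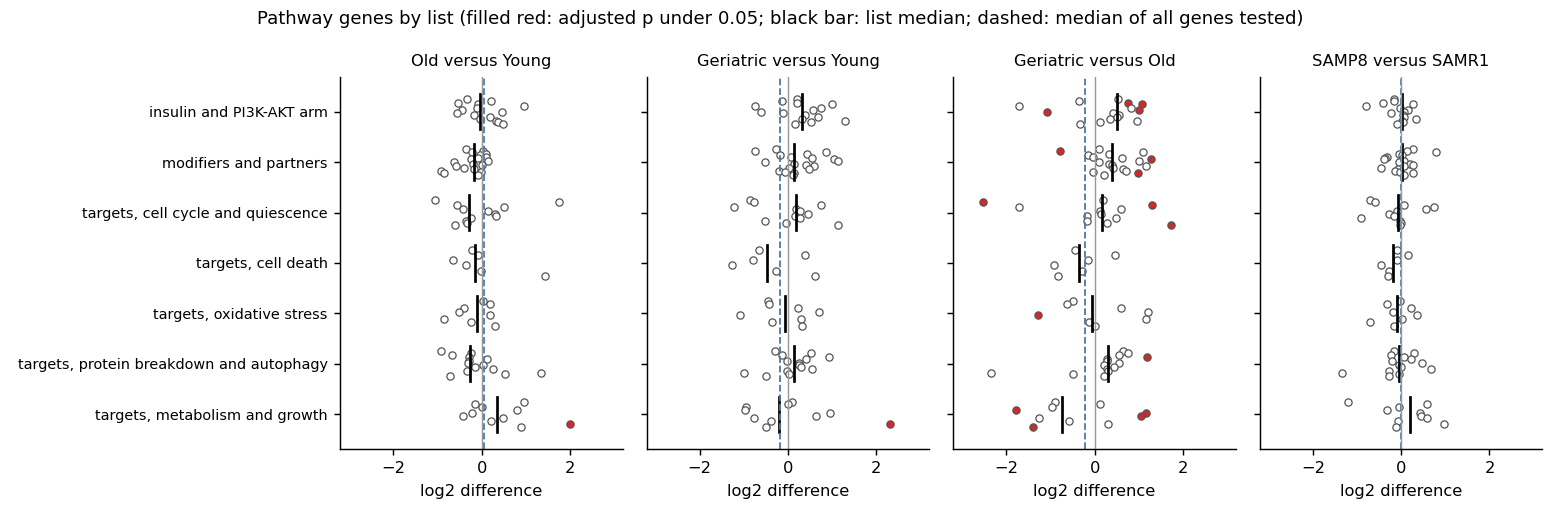
Log2 difference (horizontal axis) of each measured pathway gene by list, 1 panel per comparison; filled red points passed an adjusted p of 0.05, black bars are list medians and the dashed line is the median of all genes tested. In Geriatric versus Old 10 are called higher and 6 lower, which is 19% of the 84 against 19.9% of all genes, Ppargc1a is the single filled point in each comparison with Young, and none is filled in SAMP8 versus SAMR1.

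From Young to Old, 1 of 84 pathway genes rose and none fell (1.19%, against 1.44% of all genes). It was Ppargc1a, the coactivator of mitochondrial biogenesis. Its levels were −1.48, −1.58 and −0.83 in Young and 0.92, 0.71 and 0.50 in Old mice, a 4.01-fold rise (2.00 ± 0.22 on the log2 scale, SE; limma adjusted p = 0.00203). At 1.06 and 0.98 in Geriatric mice it was also the only 1 of 84 that rose from Young to Geriatric (2.32 ± 0.25, limma adjusted p = 0.000589), where 4.19% of all genes were called. In SAMR1 it was 0.74, 0.81 and 1.04 and in SAMP8 1.87, 1.95 and 1.67, which do not overlap (0.97 ± 0.22, limma adjusted p = 0.124). A second Ppargc1a probe, not well above background on 2 of 3 Young and 2 of 3 Old arrays, gave −0.01 ± 0.71 from Young to Old and 0.81 ± 0.79 from Young to Geriatric, and with both probes averaged neither change passed (1.0, limma adjusted p = 0.225, and 1.56, limma adjusted p = 0.0772).

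Other pathway genes of the smallest p in Old versus Young did not pass. The 14-3-3 genes Ywhab (−0.92 ± 0.26, SE; limma adjusted p = 0.108) and Ywhag (−0.84 ± 0.27, limma adjusted p = 0.143) and the methyltransferase gene Prmt1 (−0.62 ± 0.21, limma adjusted p = 0.158) gave negative differences. Becn1 of the autophagy list gave −0.67 ± 0.23 (limma adjusted p = 0.162), and Ccnd1 of the cell cycle list gave −1.07 ± 0.35 (limma adjusted p = 0.153). Of the 19 modifiers and partners, 4 (21.1%) were above 0 in this comparison, against 55.4% of all genes.

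In Geriatric versus Young, with 1 probe per gene, the insulin arm had 11 of 15 genes above 0 (39.2% of all genes were). None was called (4.19% of all genes were). The nearest were Igf1r (1.0 ± 0.28, SE; limma adjusted p = 0.0684), the mTOR complex component Rictor (1.29 ± 0.36, limma adjusted p = 0.0686) and the PI3K regulatory subunit Pik3r1 (0.69 ± 0.19, limma adjusted p = 0.0691). Over 26 other settings Rictor was called in 3, Igf1r in 1 and Pik3r1 in 0. In the fit over all probes, a second, dimmer Irs1 probe was called (1.69 ± 0.39, limma adjusted p = 0.0372). The Irs1 probe that stood for the gene was not (0.56 ± 0.28, limma adjusted p = 0.293). Sesn2 gave −1.09 ± 0.31 (limma adjusted p = 0.0788) and Klf15 0.95 ± 0.28 (limma adjusted p = 0.0870), both in the direction of Geriatric versus Old, with which they share the Geriatric arrays.

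Between SAMP8 and SAMR1, 0 of 84 pathway genes were called by limma (7 at an unadjusted p under 0.05), against 0.45% of all genes. The median was −0.03, against 0.01 over all genes. After Ppargc1a, the smallest p belonged to Angptl4 (−1.20 ± 0.34, SE; limma adjusted p = 0.260), and the acetyltransferase gene Ep300 (0.79 ± 0.32, limma adjusted p = 0.519), the kinase gene Stk4 (−0.45 ± 0.19, limma adjusted p = 0.558) and the cell cycle inhibitor Cdkn1b (0.56 ± 0.23, limma adjusted p = 0.526) followed in their lists.

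The promoters of the pathway genes were searched for the FoxO core motif GTAAACA on both strands, from 250 bases before to 50 bases after the gene start (RefSeq, GRCm38.p6). It was present in 7 of the 67 pathway genes with an entry (10.4%), against 4.05% of 27025 genes. The 7 were Akt1, Bbc3, Bcl2l11, Mdm2, Sesn1, Trim63 and Txnip, 0 of which were called by limma in the 4 comparisons here. Of all genes, 19.9% were called in Geriatric versus Old and 4.19% or fewer in the others. Entries for 2 FoxO genes, Foxo1 and Foxo3, held no match. Stretches of promoters of 2 textbook targets are given to show the motif, in capitals, in its context.
Bcl2l11, plus strand, chr2:128125788-128125847: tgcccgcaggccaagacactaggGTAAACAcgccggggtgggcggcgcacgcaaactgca
Trim63, plus strand, chr4:134314903-134314962: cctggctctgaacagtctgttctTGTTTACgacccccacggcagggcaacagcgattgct
The Trim63 letters are the reverse complement of the motif, which starts 194 bases before the gene start, and the motif of Bcl2l11 starts 227 bases before it. Bcl2l11, a cell death activator, gave 0.47 ± 0.41 (SE; limma adjusted p = 0.428) in Geriatric versus Old, and −0.01 to 0.95 without single arrays.

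The genes whose levels followed each FoxO gene most closely over the 14 arrays, among 18856 genes, were listed by Pearson's r as a description. For the Foxo3 mRNA probe they were Vmn1r223 (r = 0.913), Grm7 (0.909), Lypd4 (0.902), 4931440L10Rik (0.900) and Vmn1r-ps103 (0.899). For the upstream Foxo1 probe they were Mmp8 (r = 0.934), Olfr1471 (0.933), Gm5885 (0.932), Otud6a (0.897) and Olfr1290 (0.894). For Foxo6 A_55_P2092226 they were Ephb3 (r = 0.903), Il15ra (0.902), Rgs20 (0.896), Mef2a (0.892) and Kcna4 (0.888). For Foxo4 A_55_P2113026 the highest was Oma1 (r = 0.782), with Gps2, Dph1, Phf5a and Lrfn1 next. None of the 20 genes is in the pathway lists, and the arrays share groups, scaling and slides.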

How the data were processed

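The deposited scanner files hold each spot's processed signal as a linear intensity, which the scanner software (Agilent Feature Extraction, version 10.7.3.1 in the file headers) had already background-subtracted. The authors' deposited value table holds log2 values; how they were made is not stated in the labels or headers, but they equalled normexp (offset 50) and quantile normalization to within 1.17e-04, with a median of 7.80 in every column. Control and outlier spots were left out, and the 75th percentile of each array's log2 signals over 55681 probes was subtracted; 49930 probes (32873 genes, by their brightest kept probe) were kept. limma 3.58.1 in R 4.3.3 fitted 5 groups over 14 arrays, two-sided, with Benjamini-Hochberg adjustment over all probes or genes; differences are log2, with SE. Their number limits the precision; n = 3 arrays per group, and 2 for Geriatric. The labels call samples biological replicates without saying whether animals were pooled. Slides were read from the array identifiers; both Geriatric arrays are on slide 2.

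The members, lists and tests were chosen with earlier results of these data known. The genes named are all FoxO probes, the pathway genes called (1 is counted but not reported here), and up to 3 genes per list and comparison with the smallest p; Akt1, Akt2, Cdkn1a, Klf2, Klf4, Notch1, Notch3, Fbxo32, Trim63 and Bcl2l11 are named beside them, chosen after their values were seen. Alternatives were other scalings, filters, slide and replicate blocks, fewer arrays, and averaged probes. The script was tested on simulated data. No protein sequences were used.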

Additional observations from a re-analysis of the deposited data

How the results depend on the processing

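Most results kept their direction under the other settings, and most that were not called stayed so. Calls were less stable, and each was lost in some settings. Among pathway genes in Geriatric versus Old, Crebbp was called in 12 of 26 other settings, Ywhag in 15 and Trib1 in 17, while Irs2 and Klf15 were called in 23. From one scaling to another the median of all genes shifted from −0.22 to between −0.26 and 0.03 in Geriatric versus Old and from −0.18 to between −0.15 and −0.04 in Geriatric versus Young, and the share of called genes that were higher moved from 27.7% to between 26.2% and 46.9%, from 37.7% to between 41.9% and 50.7%, and in Old versus Young from 83.3% to between 67.8% and 87.3%. The 1 FoxO probe called in Old versus Young with normexp and quantile normalization, with the deposited values or with the percentile over detected probes was the Foxo3 mRNA probe. In Geriatric versus Old, the 2 FoxO probes called became 0 within slide 2 and with only the 2 groups, 1 with the replicate block, and 1 to 2 without single arrays. The 16 pathway genes called became 25 with normexp and quantile normalization, 1 within slide 2, 4 with only the 2 groups, 7 with the replicate block and 0 to 19 without single arrays. In Old versus Young the 1 pathway gene called became 2 with slide as a block, 0 within slide 1, within slide 2, with only the 2 groups and with averaged probes, and 1 to 2 without single arrays. In Geriatric versus Young the 1 became 2 with quantile normalization of the processed signal, 0 within slide 2 and with averaged probes, and 1 to 2 without single arrays. Settings with fewer arrays have fewer degrees of freedom, and for the rest the cause was not tested. Replicate numbers are shared between groups. Deviations from the group means had r of −0.232 to 0.174 (median −0.0187) over 26 pairs of arrays with the same number. Whether such arrays share more than a number cannot be decided from this, because deviations within a small group cancel out. Many of these pairs also lay on different slides, and r differed by slide (median −0.0559 across slides, 0.0613 within). In Geriatric versus Old under the replicate block, the Foxo3 mRNA probe gave −1.27 (limma adjusted p = 0.0131). The downstream Foxo1 probe gave 0.80 there (limma adjusted p = 0.0950). Where 1 Geriatric array was left, it was assumed to vary like the other groups.

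Among the single FoxO probes, the difference between the Foxo3 probes and the pathway genes named, signs changed in 32 values, none of them called before or after. Averaging both Foxo1 probes gave −0.23 (limma adjusted p = 0.590) in Old versus Young and 0.16 (limma adjusted p = 0.622) in Geriatric versus Old, each opposite in sign to Foxo1 A_51_P138044. In Old versus Young, Foxo1 A_51_P138044 became −0.081 within slide 2 (−0.0040 to 0.24 without single arrays), and Foxo4 became 0.14 (A_55_P2113026; −0.68 to 0.033 without single arrays) and 0.16 (A_55_P2150901; −0.44 to 0.064) within slide 1. In Geriatric versus Young, Foxo1 A_52_P453884 became −0.10 within slide 2, Foxo4 A_55_P2113026 −0.11 with slide as a block (−0.39 to 0.68 without single arrays), and Foxo3 A_55_P2129309 ranged from −0.37 to 0.050 without single arrays. There Foxo4 A_55_P2150901 became 0.077 with normexp and quantile normalization and with the deposited values, 0.10 with quantile normalization of the processed signal, 0.011 with slide as a block and 0.18 with the replicate block (−0.76 to 0.62 without single arrays). In Geriatric versus Old, Foxo6 A_52_P589568 became 0.087 with normexp and quantile normalization and with the deposited values and 0.31 with quantile normalization of the processed signal (−0.80 to 0.72 without single arrays), and Foxo4 A_55_P2150901 ranged from −0.50 to 0.88 without single arrays. In SAMP8 versus SAMR1, Foxo3 A_55_P2129309 became −0.41 within slide 1, Foxo4 A_55_P2150901 −0.76 within slide 2 (−0.28 to 0.71 without single arrays) and Foxo4 A_55_P2113026 ranged from −1.42 to 0.14. In Geriatric versus Old, Trim63 became 0.053 with the deposited values and Bcl2l11 ranged from −0.011 to 0.95 without single arrays. The change of the difference between the Foxo3 probes from SAMR1 to SAMP8 ranged from −0.40 to 0.23 without single arrays. The Foxo4 probes, close to background, limit what can be seen of that gene.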
